A study of Mus musculus with 12 samples.

Results

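The genes described here are the mouse ABC transporters, whose symbols run from Abca to Abcg, and the organic anion transporting polypeptides, whose symbols start with Slco. They were taken by symbol alone, from probe sets to which the platform annotation gives 1 gene symbol. This rule uses no measured value, but the families were chosen with earlier results of these data known. The rule gave 47 genes (36 Abc and 11 Slco genes) on 86 probe sets, of 12393 genes in all. Where a gene had several probe sets, the brightest one on average represents it. A further 18 genes that RefSeq lists under such symbols were not analysed here, among them the basolateral exporter Abcc4 and the uptake transporter Slco2b1.

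The study profiled RNA of liver cells from male C57BL/6N mice aged 12 weeks, with 3 arrays in each of 4 groups. The groups are hepatocytes of mice on tap water, hepatocytes of mice that drank phenobarbital at 50 mg/kg body weight per day for 14 days, and the mesenchymal cells of the liver of water mice and of phenobarbital mice. The sources used here do not state how the populations were separated or how many animals stand behind an array, and p-values therefore measure only the spread between these samples. Values are log2 expression from RMA, a method meant to bring arrays to a common distribution. Array medians were nevertheless 7.19 to 7.21 in hepatocytes and 7.40 to 7.44 in mesenchymal cells. A difference is thus relative to the bulk of probe sets within a population, while one between populations also holds this shift. Population differences are given as deposited, and calls that changed with each array centred on its median are named. Levels of different genes are not compared, since each probe set binds with its own strength.

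ABC transporters are membrane pumps that spend ATP to move bile salts, conjugated drugs, phospholipids and sterols out of a cell or into an organelle. In the liver, one set sits in the canalicular membrane of the hepatocyte and forms bile, while organic anion transporting polypeptides in the sinusoidal membrane take bile acids, bilirubin and drugs up from blood. Phenobarbital is an anticonvulsant that activates the nuclear receptor CAR in hepatocytes, which induces drug-metabolising enzymes and is known to act on some transporter genes.

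Cyp2b10, the enzyme gene that marks this response, was at 7.80, 8.01 and 7.72 in the hepatocyte samples of water mice and at 13.06, 14.15 and 12.87 in those of phenobarbital mice, so the treatment label is borne out in hepatocytes. Arrays of a group correlated at r of 0.989 to 0.9965 across probe sets. The 14 hepatocyte markers measured had a mean of 14.10 to 14.19 on the hepatocyte arrays and of 9.65 to 11.50 on the mesenchymal arrays. All 11 measured Kupffer cell markers and all 12 endothelial markers were called higher in mesenchymal cells of water mice by limma (means of 13.69 to 13.86 and of 12.40 to 12.91 there, against 6.23 to 6.30 and 6.43 to 6.60 in hepatocytes). Of the 11 stellate cell and fibroblast markers, the cells closest to the mesenchymal label, 7 were called higher there (means of 7.48 to 7.91, against 5.75 to 5.90), and 3 stayed below the 40th percentile on every mesenchymal array of water mice. The population is therefore called mesenchymal only by its label, and its arrays also carried T and NK cell markers (means of 8.19 to 9.04, against 6.05 to 6.18). Sample 1 of the water mice stood apart in both populations in the clock output gene Dbp, at 6.21 and 6.52 against 11.60 to 12.15 on the other 10 arrays. Mesenchymal phenobarbital sample 1 had the highest hepatocyte marker mean of its population, 11.50. Results that touch these samples are given with their values.

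Of the 47 genes, 30 lay above the 40th percentile of every array in hepatocytes of water mice and 26 in mesenchymal cells of water mice. Over all 12 arrays, 20 genes were above it throughout and 9 were below it throughout. That percentile was 6.54 to 6.60 on hepatocyte arrays and 6.64 to 6.68 on mesenchymal arrays, and a gene was tested where it passed this level on at least 3 arrays of the fit. The 9 genes below it throughout were Abca4, Abcb1b, Abcc8, Slco1a5, Slco1a6, Slco1c1, Slco5a1, Slco6b1 and Slco6c1, and they were not tested.

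The transporter genes differed between the populations in both directions, from −5.64 for Slco1b2 to 5.14 for Abcg1 in water mice. There 12 of the 47 transporter genes (25.5%) were at least 8-fold lower in mesenchymal cells than in hepatocytes, against 4.78% of all 12393 genes, and 4 were at least 8-fold higher (8.51%, against 4.9%). Of the 12, Abca8a, Abca8b, Abcc2, Abcc6 and Abcg5 lay below the 40th percentile on every mesenchymal array of water mice, and of the 4, Abcc1, Abcc9 and Abcg3 lay below it on every hepatocyte array. Their lower level was thus not measured above background. The log2 differences printed for these 8 genes are therefore not exact, and no fold is given for them. They passed the filter only through the population where they are high. The counts were 12 and 4, with the same genes, without both water samples numbered 1. The ranges of the groups were apart, with mesenchymal cells lower, in 29 of 47 genes (61.7%, against 47.6% of all genes) and, with mesenchymal cells higher, in 12 (25.5%, against 33.8%). By limma with Benjamini-Hochberg adjustment over all 9031 genes tested, 23 of the 37 tested transporter genes were lower and 11 higher, where 40.7% of all genes tested were called lower, 42% higher and 82.7% in either direction. With each array centred on its median, 25 transporter genes were lower and 9 higher, and 4343 of all genes were lower and 3226 higher, in place of 3677 and 3793. A gene expressed in 1 population only passes the filter through that population, so this count is given beside the background and not as support. In such bulk samples fewer cells of a type and less RNA per cell cannot be told apart.

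Of 8 canalicular exporters measured, 7 were tested. In mesenchymal cells of water mice 6 were lower (40.7% of all genes tested were) and none was higher (42% were). Promoter stretches of 2 of them, and the stretch shared by a further pair, are shown as the DNA just upstream of the exporters of bile salts, conjugates and sterols. They come from RefSeq on GRCm38.p6, read 5′ to 3′ on the strand of the gene named first, and end at the base before its annotated start. For Abcb11, the bile salt export pump, the 250 bases are chr2:69342617-69342866 on the minus strand. Capitals mark an inverted repeat of the half-site GGNCA with 1 base between its arms, the type of element bound by the bile acid receptor FXR, whose first base lies 62 bases before the start.

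Abcb11: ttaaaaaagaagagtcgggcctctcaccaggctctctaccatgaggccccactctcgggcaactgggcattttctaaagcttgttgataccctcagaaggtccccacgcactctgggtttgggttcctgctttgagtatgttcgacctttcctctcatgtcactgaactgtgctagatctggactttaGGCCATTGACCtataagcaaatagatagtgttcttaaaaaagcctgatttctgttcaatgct

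For Abcc2, the exporter of bilirubin glucuronide and other conjugates, the 250 bases are chr19:43782058-43782307 on the plus strand. Capitals mark GTTAA followed after 2 bases by ATNA, a relaxed form of the site of the hepatocyte factor HNF1, 75 bases before the start.

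Abcc2: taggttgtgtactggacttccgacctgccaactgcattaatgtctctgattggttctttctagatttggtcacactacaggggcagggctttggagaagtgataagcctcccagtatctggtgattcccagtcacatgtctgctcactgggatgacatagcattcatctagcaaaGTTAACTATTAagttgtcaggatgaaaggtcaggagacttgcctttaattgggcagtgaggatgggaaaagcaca

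Abcg5 and Abcg8, whose products pair into the sterol exporter of bile, start head to head, and the 109 bases between their starts are chr17:84683012-84683120, printed on the strand of Abcg8. Capitals mark 2 GATA boxes, TTATC on this strand and GATAA on that of Abcg5.

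Abcg8: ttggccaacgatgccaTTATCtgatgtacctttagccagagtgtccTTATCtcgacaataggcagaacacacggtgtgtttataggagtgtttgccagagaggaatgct

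These motifs were picked after these sequences had been read, and a match is a description of letters, not a bound site. Searched on both strands in the 250 bases before each start, the inverted repeat was in 0.575% of 32851 RefSeq promoters, the relaxed HNF1 site in 0.791% and GATAA in 22.6%. Of the 47 transporter genes 36 matched by symbol, with 43 promoters, of which 2 held the inverted repeat, 2 the HNF1 site and 7 GATAA, among them Abcc2, where it is not in capitals. Among the 12 promoters of 11 of the genes at least 8-fold lower in mesenchymal cells, 2, 2 and 4 held them, in the same order. The inverted repeat was in Abcb11 and Slco1b2 and the HNF1 site in Abcc2 and Slco1b2, whose promoters are all printed here. The counts of these motifs thus depend on how the motifs were picked, and they are not given as support.

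Abcb11 was at 12.33, 11.84 and 11.89 in the hepatocyte samples of water mice and at 6.38, 7.004 and 7.05 in their mesenchymal samples. Abcc2 was at 9.86, 10.52 and 10.68 in hepatocytes and at 5.19, 5.95 and 6.04 in mesenchymal cells, all of the latter below the 40th percentile. Of the mesenchymal values of Abcb11, 2 of 3 were above it. The ranges are far apart in both genes, and hepatocyte sample 1 was the low one of its group for Abcc2 and the high one for Abcb11. The differences were −5.21 (SE 0.32, 36.9-fold, adjusted p = 2.38e-08, limma) and −4.63 (SE 0.27, adjusted p = 1.92e-08, limma).

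Abcg5 was at 9.63, 10.47 and 10.47 in hepatocytes and at 4.44, 4.87 and 4.72, below the 40th percentile, in mesenchymal cells, a difference of −5.51 (SE 0.24, adjusted p = 1.74e-09, limma). Its partner Abcg8 was at 8.95, 9.63 and 9.79 in hepatocytes and at 6.73, 6.76 and 6.84 in mesenchymal cells, a difference of −2.68 (SE 0.18, adjusted p = 6.05e-08, limma). Hepatocyte sample 1 was the lowest of its group for both partners. The probe set of Abcg8 stayed near the 40th percentile in mesenchymal cells and that of Abcg5 well under it, so the gap between the 2 differences may not be read as unequal expression of the pair.

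Abcb4, the flippase that brings phosphatidylcholine into bile, was the least variable canalicular exporter in hepatocytes of water mice, at 10.73, 10.72 and 10.72. It was at 7.57, 7.72 and 7.39 in mesenchymal cells. Its difference was −3.16 (SE 0.10, 8.96-fold, adjusted p = 1.28e-10, limma), and its mesenchymal values were above the 40th percentile on all arrays. Abcg2, an exporter of urate, porphyrins and drugs, was at 10.78, 10.65 and 10.63 in hepatocytes and at 8.92, 9.48 and 9.86 in mesenchymal cells. It was thus readily measured in both populations, with a difference of −1.26 (SE 0.19, 2.40-fold, adjusted p = 6.61e-05, limma) and no overlap.

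The drug efflux pump P-glycoprotein has 2 genes in mice. Abcb1a was at 5.38, 6.50 and 6.35 in hepatocytes of water mice and at 5.78, 5.84 and 5.91 in mesenchymal cells, and the ranges overlapped. Its difference of −0.23 (SE 0.26, 95% interval −0.80 to 0.33) did not pass (adjusted p = 0.409, limma). Without hepatocyte sample 1, the low array, it was −0.59 and passed (adjusted p = 0.00923, limma), and without both water samples numbered 1 it was −0.56 (adjusted p = 0.0251, limma). All these values of Abcb1a lay below the 40th percentile, and the filter let the gene in only through hepatocytes of phenobarbital mice. Its further probe set differed the other way, by 0.35, and was not tested, so no direction is drawn for Abcb1a in water mice. Abcb1b lay between 4.41 and 4.58 on the 6 arrays of water mice, below the 40th percentile, and was not tested.

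The organic anion transporting polypeptides split into 3 hepatocyte genes, 2 genes higher in mesenchymal cells and 6 genes below the 40th percentile throughout. Slco1b2 is the murine counterpart of the human OATP1B uptake transporters. The 250 bases before its start, chr6:141629268-141629517 on the plus strand of GRCm38.p6, hold both kinds of motif named above, in capitals. GGACAGTGACC begins 87 bases and GTTAATCATCA 66 bases before the start.

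Slco1b2: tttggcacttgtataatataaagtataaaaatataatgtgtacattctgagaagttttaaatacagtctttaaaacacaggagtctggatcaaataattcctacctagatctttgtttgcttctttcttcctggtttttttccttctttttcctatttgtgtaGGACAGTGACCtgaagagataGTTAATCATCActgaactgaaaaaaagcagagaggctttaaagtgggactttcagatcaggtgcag

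Slco1b2 was at 12.18, 12.59 and 12.76 in hepatocytes of water mice and at 6.14, 7.29 and 7.18 in mesenchymal cells. The difference of −5.64 (SE 0.44, 49.7-fold, adjusted p = 2.13e-07, limma) was the widest of the 37 transporter genes tested. Slco1a1, an uptake transporter of bile acids and steroid conjugates that is higher in male than in female mouse liver, was at 12.00, 11.93 and 12.13 in hepatocytes and at 6.47, 6.92 and 7.17 in mesenchymal cells. It differed by −5.17 (SE 0.25, 35.9-fold, adjusted p = 3.60e-09, limma). For each of these genes 2 of the 3 mesenchymal values were above the 40th percentile.

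Slco1a4, which also takes up digoxin, was at 9.44, 10.57 and 10.64 in hepatocytes and at 6.49, 6.60 and 7.15 in mesenchymal cells, a difference of −3.47 (SE 0.30, 11.1-fold, adjusted p = 6.23e-07, limma). Hepatocyte sample 1 was again the low array, and 1 of the 3 mesenchymal values was above the 40th percentile. For all 3 genes mesenchymal sample 1 was the lowest of its group, and it also had the lowest hepatocyte marker mean of the mesenchymal arrays, 9.65.

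Slco2a1, the prostaglandin transporter, was high in both populations, at 10.44, 10.19 and 9.99 in hepatocytes and at 10.66, 11.01 and 11.15 in mesenchymal cells. It was higher in mesenchymal cells by 0.73 (SE 0.16, 1.66-fold, adjusted p = 0.000954, limma). A further probe set was at 9.03, 8.92 and 8.99 against 9.14, 9.46 and 9.63. Another was at 7.66, 7.28 and 7.16 against 7.32, 7.75 and 7.67, which overlap. The 12 endothelial markers averaged 6.43 to 6.60 on the same hepatocyte arrays, and the part of endothelial RNA in the Slco2a1 values was not tested. Slco3a1, a broadly expressed member that carries prostaglandins and thyroid hormone, was at 6.63, 6.31 and 6.79 in hepatocytes and at 8.38, 7.99 and 8.04 in mesenchymal cells. Its difference was 1.57 (SE 0.13, 2.96-fold, adjusted p = 4.82e-07, limma), with no overlap.

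**Figure D1:**
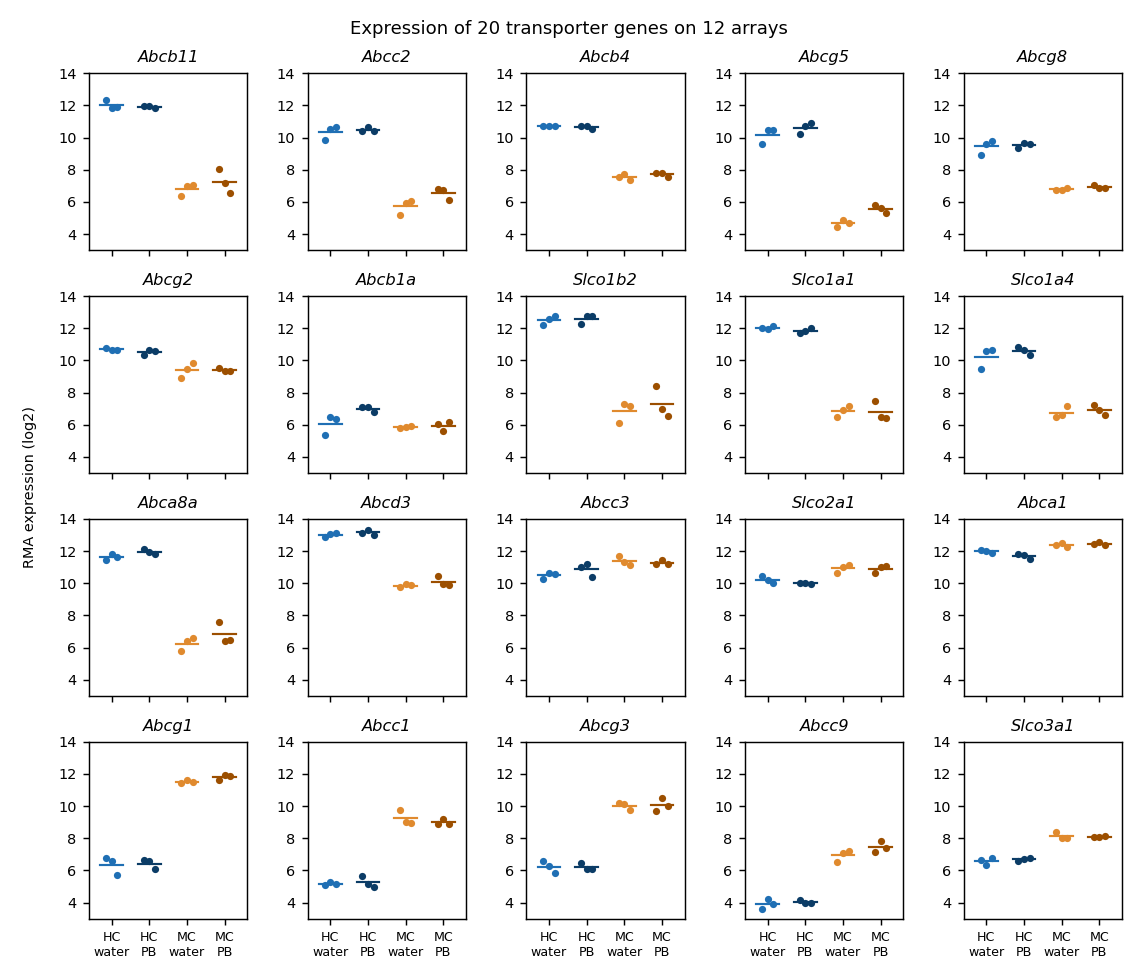
Expression of 20 transporter genes on the 12 arrays (RMA, log2, y axis), by group on the x axis (HC, hepatocytes; MC, mesenchymal cells; PB, phenobarbital). Points are arrays and lines are group means. Abcb11, Abcg5 and Slco1b2 sit lower in mesenchymal cells of water mice (differences of −5.21, −5.51 and −5.64), and Abcg1 and Abcc1 sit 5.14 and 4.05 higher. The mesenchymal values of Abcg5 and the hepatocyte values of Abcc1 lie below the 40th percentile, so their differences are not exact. Between water and phenobarbital the ranges are apart for Abcb1a, Abca1 and Abcb4 in hepatocytes. In mesenchymal cells they are apart for Abcc2, Abcg5 and Abcg8.

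The exporters of the ABCC family outside the canaliculus went in different directions. Abcc6, which releases ATP from hepatocytes, was at 9.51, 9.76 and 9.90 in hepatocytes and at 5.52, 5.57 and 5.75 in mesenchymal cells, a difference of −4.11 (SE 0.23, adjusted p = 1.04e-08, limma). Its mesenchymal values were below the 40th percentile, and it passed the filter only through hepatocytes. Abcc1, an exporter of glutathione conjugates and leukotriene C4, showed the opposite pattern, at 5.10, 5.26 and 5.18 in hepatocytes and at 9.77, 8.997 and 8.93 in mesenchymal cells. It was higher in mesenchymal cells by 4.05 (SE 0.23, adjusted p = 1.17e-08, limma), and the hepatocyte values were below the 40th percentile.

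Abcc3, the basolateral exporter of glucuronides into blood, was at 10.29, 10.62 and 10.60 in hepatocytes and at 11.68, 11.32 and 11.12 in mesenchymal cells. It was higher in the latter by 0.87 (SE 0.20, 1.83-fold, adjusted p = 0.00187, limma), and it was high in both populations. Abcc10 lay close to the 40th percentile on all arrays (6.04 to 6.69) and was not tested.

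Abcc5, an exporter of cyclic nucleotides and haem, gave different answers by probe set. The probe set used was at 8.85, 8.76 and 8.92 in hepatocytes and at 8.93, 8.86 and 8.70 in mesenchymal cells, a difference of −0.02 (SE 0.09, adjusted p = 0.88, limma). Its 6 further probe sets were all higher in mesenchymal cells of water mice, by 0.81 to 2.43. Of these, 5 were tested with every probe set as its own row, and each of the 5 was called higher (adjusted p of 2.21e-09 to 9.24e-05, limma). The files do not say which transcripts the 7 probe sets read, and no direction is drawn for Abcc5.

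Of the 9 lipid exporters measured, 8 were tested in water mice, with 3 higher and 5 lower in mesenchymal cells. Abcg1, which passes cholesterol from macrophages to high-density lipoprotein, was at 6.79, 6.58 and 5.70 in hepatocytes and at 11.40, 11.62 and 11.47 in mesenchymal cells. The difference of 5.14 (SE 0.25, 35.3-fold, adjusted p = 3.41e-09, limma) was the widest upward one of the transporter genes tested, with 2 of 3 hepatocyte values above the 40th percentile, in a population whose Kupffer cell markers were at 13.69 to 13.86. Abca1, which loads cholesterol onto apolipoprotein A-I, was high in both populations, at 12.08, 12.02 and 11.90 against 12.39, 12.50 and 12.27. It was higher in mesenchymal cells by 0.38 (SE 0.10, adjusted p = 0.00302, limma), and all 3 of its probe sets went this way.

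Array medians were 0.22 higher in mesenchymal cells than in hepatocytes of water mice and 0.23 higher in phenobarbital mice. With each array centred on its median, Abca1 was higher by 0.17 and did not pass (adjusted p = 0.12, limma), and Abcd4, a lysosomal cobalamin transporter, went from 0.42 (adjusted p = 0.00392) to 0.21 (adjusted p = 0.103). Centring turned no sign among the tested transporter genes in either population comparison. It added calls lower in mesenchymal cells of water mice for Abcb9 and Abcc5. In phenobarbital mice it ended the call of Abcd4 (0.20, adjusted p = 0.114) and added calls lower in mesenchymal cells for Abca3, Abcb9, Abcc5 and Abcf1.

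Abca7, a phagocytosis-linked relative of Abca1, was at 6.91, 6.74 and 7.11 in hepatocytes and at 8.72, 9.06 and 9.25 in mesenchymal cells, higher by 2.09 (SE 0.15, 4.26-fold, adjusted p = 9.05e-08, limma). Abca8a was at 11.44, 11.83 and 11.62 against 5.77, 6.41 and 6.57 (−5.38, SE 0.29, adjusted p = 7.78e-09, limma). Its close relative Abca8b was at 8.68, 8.24 and 8.21 against 4.52, 4.90 and 4.59 (−3.71, SE 0.16, adjusted p = 1.67e-09, limma). The mesenchymal values of both lay below the 40th percentile, and both passed the filter only through hepatocytes. The other 3 lipid exporters called lower were the neuronal and endolysosomal Abca2 (−0.88), the surfactant lipid transporter Abca3 (−0.33) and Abcg4 (−0.68), a relative of Abcg1, while Abca4 was not tested. For Abca3 a further probe set had the opposite sign (0.05, adjusted p = 0.645, limma), and the ranges of the probe set used overlapped. Whether probe sets of close relatives, such as Abca8a and Abca8b or the Slco1a genes, bind each other's transcripts was not tested.

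Of 7 transporters of peroxisomes, mitochondria and lysosomes, all tested, 4 were lower in mesenchymal cells of water mice, 2 higher (Abcd2 and Abcd4, the latter not with centred arrays) and 1 did not pass. Of all genes tested, 40.7% were called lower and 42% higher. Abcd3, the peroxisomal importer of branched fatty acids and bile acid precursors, was at 12.85, 13.05 and 13.12 in hepatocytes and at 9.75, 9.96 and 9.86 in mesenchymal cells. Its difference was −3.15 (SE 0.15, adjusted p = 2.55e-09, limma). Its relative Abcd2, a peroxisomal importer of very long-chain fatty acids, went the other way, at 6.42, 6.97 and 6.62 against 8.003, 8.07 and 7.73 (1.27, SE 0.24, adjusted p = 0.000385, limma).

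Abcb6, a porphyrin transporter, was at 10.08, 10.41 and 10.36 in hepatocytes and at 7.17, 7.27 and 7.03 in mesenchymal cells, a difference of −3.13 (SE 0.12, 8.74-fold, adjusted p = 6.35e-10, limma). The mitochondrial transporters Abcb10 and Abcb8 were lower in mesenchymal cells by smaller steps (−1.28 and −0.67). The lysosomal peptide transporter Abcb9 did not pass (−0.22, adjusted p = 0.054, limma), and its 2 further probe sets had opposite signs.

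The ABC ATPases without membrane domains, Abce1 and Abcf1 to Abcf3, act in ribosome recycling and translation and transport nothing. All 4 were slightly lower in mesenchymal cells of water mice, by −0.71 to −0.37, and each was high on every array. Abcc9, the regulatory subunit of potassium channels in vessel wall and mural cells, was at 3.58, 4.25 and 3.89 in hepatocytes and at 6.52, 7.06 and 7.23 in mesenchymal cells. It was higher by 3.03 (SE 0.23, adjusted p = 1.79e-07, limma), and only 2 of the 3 mesenchymal arrays and none of the hepatocyte arrays lay above the 40th percentile. Abcg3, a rodent gene related to Abcg2, was at 6.56, 6.26 and 5.83 against 10.17, 10.13 and 9.76 (3.80, SE 0.23, adjusted p = 2.24e-08, limma), and its further probe set differed by 4.996. Its hepatocyte values were below the 40th percentile, and it passed the filter only through mesenchymal cells.

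**Figure D2:**
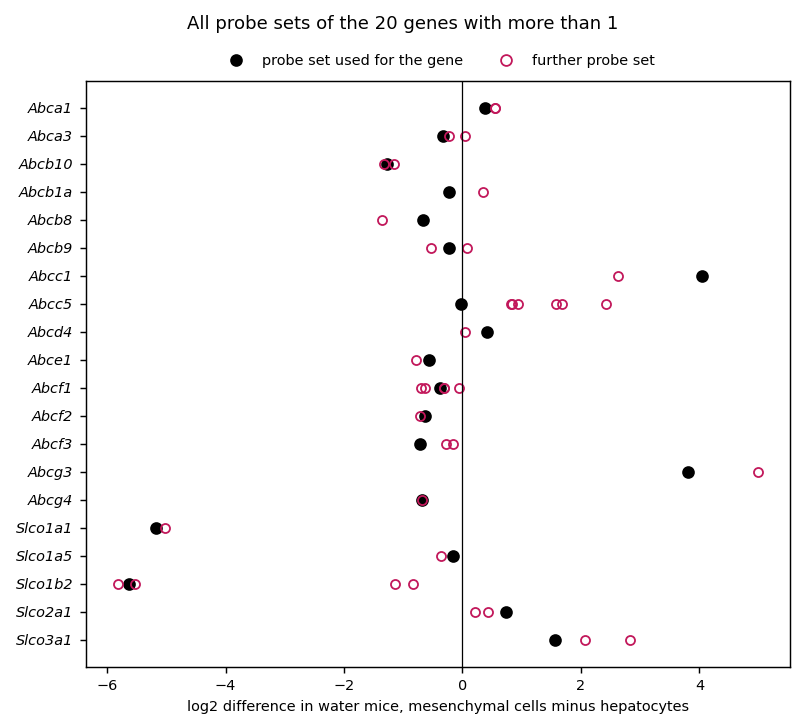
Log2 difference between mesenchymal cells and hepatocytes of water mice (x axis) for every probe set of the 20 transporter genes that have more than 1 (rows). Filled points are the probe sets used and open points the 39 further ones, 30 of which lie on the same side of 0. The 7 probe sets of Abcc5 run from −0.02 to 2.43.

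The populations were compared again in phenobarbital mice. By limma 22 of the 37 tested transporter genes were lower in mesenchymal cells and 9 higher, where 40.9% of all 9031 genes tested were called lower, 42.2% higher and 83.1% in either direction. The ranges were apart with mesenchymal cells lower in 29 of 47 genes (61.7%, against 48.8%), with mesenchymal cells higher in 9 (34.1% of all genes), and 10 of 47 were at least 8-fold lower (21.3%, against 4.62%). The 4 genes at least 8-fold higher were again Abcc1, Abcc9, Abcg1 and Abcg3 (4.96% of all genes). Without mesenchymal phenobarbital sample 1 the ranges were apart with mesenchymal cells lower in 30 of 47 genes (50.1% of all genes). At least 8-fold lower were again 10 of 47 (4.81% of all genes). The 30 genes called in both treatments had the same sign in both. The water and phenobarbital comparisons share no sample, but all arrays share 1 estimate of the spread.

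Abcb11 was at 11.96, 11.97 and 11.81 in hepatocytes of phenobarbital mice and at 8.06, 7.18 and 6.55 in mesenchymal cells (−4.65, SE 0.32, adjusted p = 6.34e-08, limma). Slco1b2 was at 12.26, 12.76 and 12.79 against 8.44, 6.97 and 6.54 (−5.29, SE 0.44, adjusted p = 3.80e-07, limma). In both genes mesenchymal sample 1, the one with the highest hepatocyte marker mean, was the highest of its group, and the ranges stayed far apart from hepatocytes.

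For a few genes the call was not the same in both treatments, which is no test of a difference between them. Abcb1a was at 7.11, 7.13 and 6.79 in hepatocytes and at 6.04, 5.599 and 6.17 in mesenchymal cells of phenobarbital mice, a difference that passed (−1.07, SE 0.26, adjusted p = 0.00221, limma). Only the 3 hepatocyte arrays of phenobarbital mice were above the 40th percentile for this gene, and the filter let it in through them. Abcc3 was at 11.004, 11.19 and 10.38 against 11.17, 11.45 and 11.17, which overlap, and did not pass (0.40, SE 0.20, adjusted p = 0.0863, limma). Without hepatocyte phenobarbital sample 2 it was 0.57 and passed (adjusted p = 0.0276, limma). Abcd2 (0.54, adjusted p = 0.051), Abcf1 (−0.15, adjusted p = 0.157) and Abca3 (−0.14, adjusted p = 0.315) did not pass either. With centred arrays Abcf1 (−0.38, adjusted p = 0.00313) and Abca3 (−0.37, adjusted p = 0.0153) passed, as they did in water mice.

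**Figure D3:**
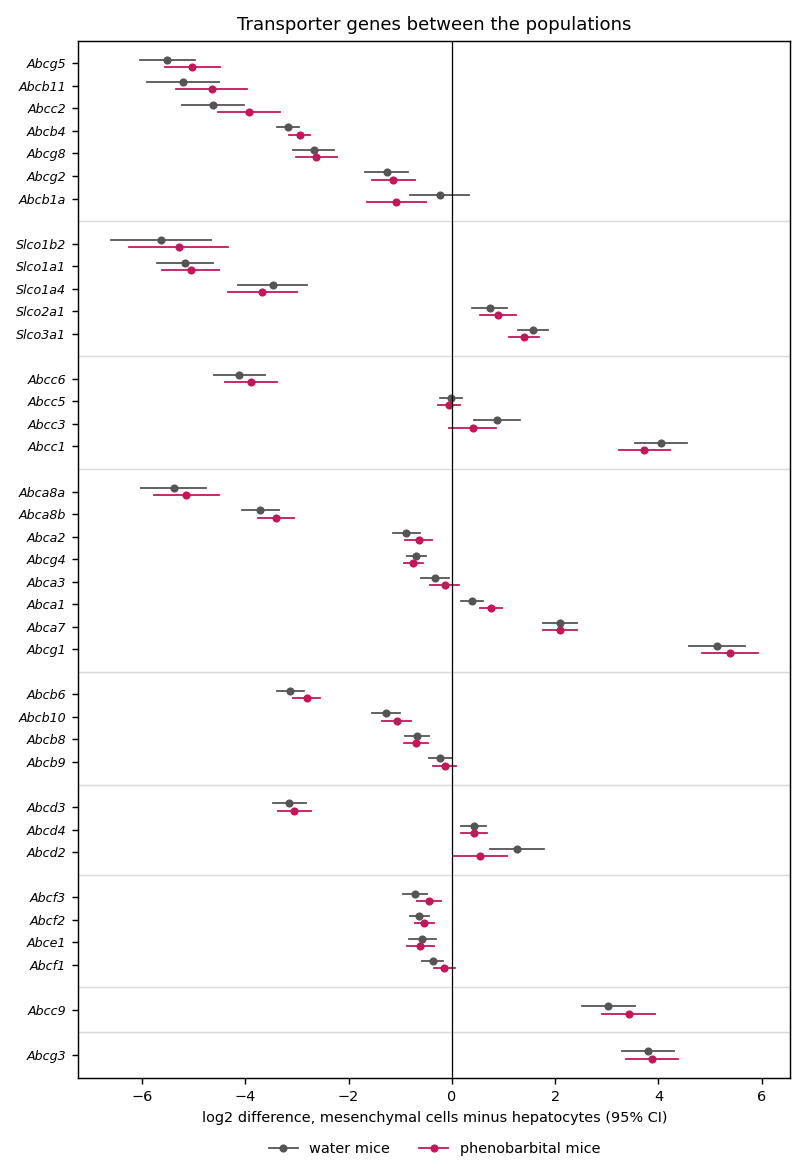
Log2 difference between mesenchymal cells and hepatocytes (x axis) of the 37 tested transporter genes (rows, grouped by role) in water mice and in phenobarbital mice. Points are limma estimates and lines their 95% intervals. Canalicular exporters other than Abcb1a, and Slco1b2, Slco1a1 and Slco1a4, lie to the left in both treatments. Abcg1, Abcc1, Abcg3 and Abcc9 lie to the right. The difference of Abcb1a in water mice did not pass (−0.23, adjusted p = 0.409, limma), and no direction is drawn for it there.

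In hepatocytes no transporter gene was called under phenobarbital, and 3 arrays per group cannot show that the effects were small. By limma none of the 34 tested transporter genes passed over 8117 genes, where 0.0493% of all genes tested (4 genes) did. At an unadjusted p under 0.05 there were 4 of 34 (11.8%, against 8.38%), and the ranges of the groups were apart in 7 of 47 (14.9%, against 14.3% of all genes), so the transporter genes were near the background. Of the 7, 4 were higher under phenobarbital (7.49% of all genes were) and 3 lower (6.8%). The median difference over the 47 genes was 0.02, against 0.01 over all genes. Without water sample 1 none passed, and the ranges were apart in 11 of 47 where 24.4% of all genes were.

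Abcb1a, the drug efflux pump gene that CAR and the related receptor PXR are known to act on, showed the widest difference. It was at 5.38, 6.50 and 6.35 in hepatocytes of water mice and at 7.11, 7.13 and 6.79 in those of phenobarbital mice. All 3 treated samples were above all 3 water samples, and sample 1 of the water mice was the lowest. The difference of 0.93 (SE 0.29, 1.91-fold, 95% interval 0.27 to 1.60) had an unadjusted p of 0.0125 and did not pass (adjusted p = 0.477, limma). Without water sample 1 it was 0.58 (SE 0.16, adjusted p = 0.479, limma). Its further probe set, which was below the 40th percentile of too many arrays to be tested, differed by 1.08. The water values of the probe set used were below that percentile as well.

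The other genes at an unadjusted p under 0.05 were Abca1, Abca8a and Abcd2. Abca1 was at 12.08, 12.02 and 11.90 in water mice and at 11.83, 11.74 and 11.49 in phenobarbital mice, with no overlap (−0.31, SE 0.10, adjusted p = 0.507, limma), and its further probe sets differed by −0.26 and −0.29. Abca8a was at 11.44, 11.83 and 11.62 against 12.13, 11.93 and 11.82 (0.33, SE 0.12, adjusted p = 0.553, limma). Abcd2 was at 6.42, 6.97 and 6.62 against 7.05, 7.84 and 6.93 (0.60, SE 0.25, adjusted p = 0.592, limma), and sample 2 of the treated mice was the high one.

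Abcc3, which CAR is also known to act on, was at 10.29, 10.62 and 10.60 in water mice and at 11.004, 11.19 and 10.38 in phenobarbital mice. Treated sample 3 lay among the water samples, and the difference of 0.36 (SE 0.21, 95% interval −0.12 to 0.83) did not pass (adjusted p = 0.671, limma). Without treated sample 3 it was 0.60 with an unadjusted p of 0.00335, and still did not pass (adjusted p = 0.302, limma).

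Slco1a4, a further known target of PXR and CAR, was at 9.44, 10.57 and 10.64 in water mice and at 10.82, 10.67 and 10.32 in phenobarbital mice. The difference of 0.39 (SE 0.31, 95% interval −0.33 to 1.11, adjusted p = 0.742, limma) rested on water sample 1: without it, it was 0.0013 (adjusted p = 0.998, limma). Abcg5 was at 9.63, 10.47 and 10.47 against 10.21, 10.70 and 10.88 (0.41, SE 0.26, adjusted p = 0.696, limma), and at 0.13 without that sample. Dbp was at 6.21 in that sample, and the part of sampling time in these values was not tested.

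The bile salt pump and the main uptake genes lay close to each other in both treatments. Abcb11 had means of 12.02 ± 0.27 and 11.91 ± 0.09 (SD, n = 3 each), a difference of −0.11 with a 95% interval of −0.42 to 0.20. Abcc2 had means of 10.35 ± 0.44 and 10.49 ± 0.15, a difference of 0.13 (interval −0.34 to 0.61). Slco1b2 had means of 12.51 ± 0.30 and 12.60 ± 0.29, a difference of 0.09 (interval −0.33 to 0.52). Without water sample 1 the signs of all 3 turned (0.05, −0.12 and −0.07).

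For 4 further genes the interval reached less than 0.5 from 0. Slco1a1, at 12.00, 11.93 and 12.13 in water mice and 11.70, 11.82 and 12.03 in phenobarbital mice, differed by −0.17 (interval −0.41 to 0.06). Abcb4 was at 10.73, 10.72 and 10.72 against 10.70, 10.71 and 10.56, which do not overlap, yet its difference was −0.06 (interval −0.24 to 0.11). Abcg2 was at 10.78, 10.65 and 10.63 against 10.35, 10.65 and 10.58 (−0.16, interval −0.39 to 0.07). Slco2a1 was at 10.44, 10.19 and 9.99 against 10.02, 10.04 and 9.96 (−0.20, interval −0.47 to 0.07). The intervals of Abcg8 (0.09, −0.40 to 0.59) and Abcg1 (0.06, −0.63 to 0.74) were wider.

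Genes near background also had ranges apart. Abcb1b was at 4.55, 4.41 and 4.56 in water mice and at 3.62, 4.12 and 4.26 in phenobarbital mice, and Slco1a6, Slco1c1 and Slco5a1 were apart in the other direction by 0.26, 0.31 and 0.24. All lay below the 40th percentile on all 12 arrays, where log2 values carry little signal, and none passed when every gene was tested without the filter (adjusted p of at least 0.534 for Abcb1b and of 0.569 for Slco1c1, limma).

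**Figure D4:**
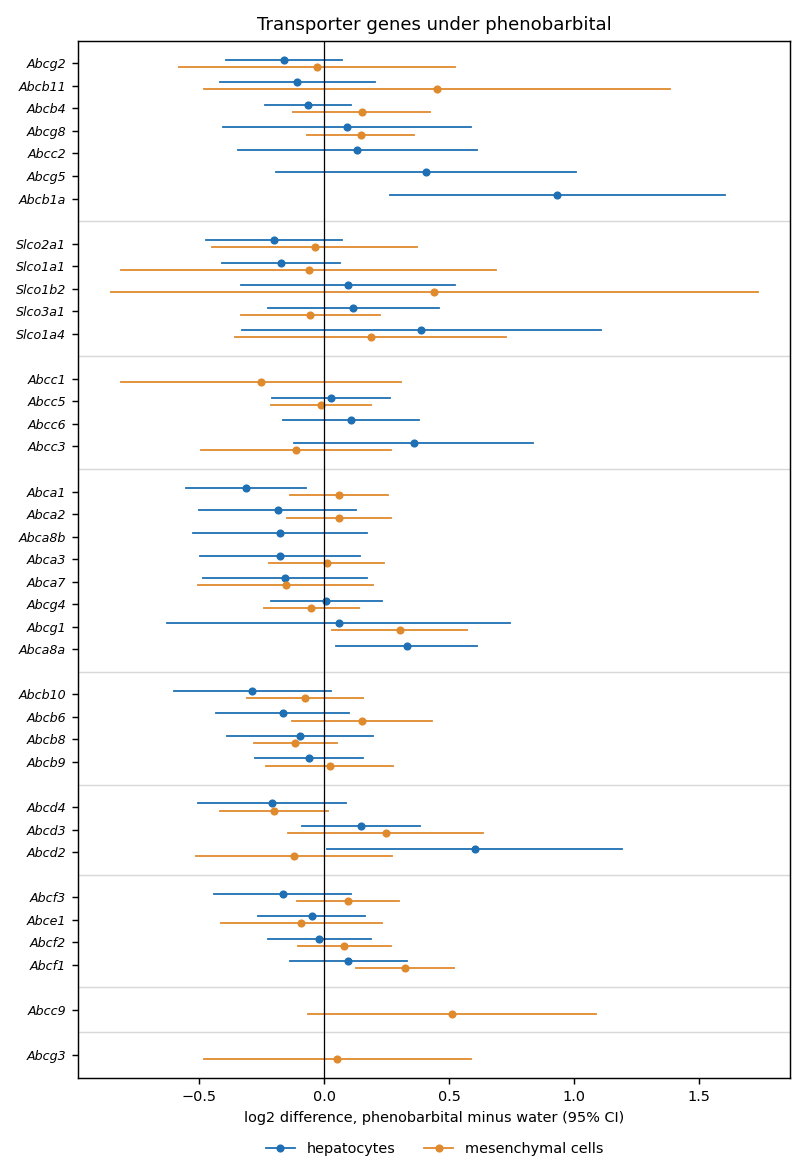
Log2 difference between phenobarbital and water (x axis) of the tested transporter genes (rows, grouped by role) in hepatocytes and in mesenchymal cells. Points are limma estimates and lines their 95% intervals, which are not adjusted for the number of genes. Abcb1a in hepatocytes is the farthest from 0 at 0.93, and no gene passed the adjusted threshold in either population.

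In mesenchymal cells none of the 31 tested transporter genes passed under phenobarbital, nor did any of the 8003 genes tested (0%, limma). At an unadjusted p under 0.05 there were 2 of 31 (6.45%), against 232 of 8003 (2.9%). The ranges were apart in 7 of 47 genes (14.9%, against 8.37% of all genes), higher in Abca4, Abcc2, Abcf1, Abcg5 and Abcg8 (3.8% of all genes) and lower in Abcb8 and Abcd4 (4.57%). Without phenobarbital sample 1 they were apart in 12 of 47, where 19.2% of all genes were. Without water sample 1 it was also 12, where 18.7% of all genes were.

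Canalicular genes, which are 8 of the 47, made up 3 of the 5 higher ones. Abcg5 was at 4.44, 4.87 and 4.72 in water mice and at 5.79, 5.61 and 5.33 in phenobarbital mice (0.90), and Abcc2 was at 5.19, 5.95 and 6.04 against 6.84, 6.72 and 6.10 (0.83). Abcg8 was at 6.73, 6.76 and 6.84 against 7.04, 6.87 and 6.87 (0.15, SE 0.09, adjusted p = 0.998, limma). All 6 values of Abcg5 and 4 of the 6 of Abcc2 were below the 40th percentile of their array. Neither gene was tested within the filter, and tested without it they had unadjusted p-values of 0.000696 and 0.0212 and did not pass (adjusted p = 0.999 for both, limma).

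The hepatocyte markers also varied between the mesenchymal arrays, but their means overlapped between water and phenobarbital mice, unlike the values of Abcg5, Abcc2 and Abcg8. Their mean was 9.65, 10.74 and 10.55 in mesenchymal cells of water mice and 11.50, 10.38 and 10.13 in those of phenobarbital mice. The 12 transporter genes at least 8-fold lower in mesenchymal cells, chosen in the water comparison, averaged 6.28, 6.71 and 6.71 in water mice and 7.33, 6.87 and 6.57 in phenobarbital mice. Of these 12 genes, 10 were highest of the phenobarbital group in sample 1 and 10 were lowest of the water group in sample 1, the samples where the markers were highest and lowest. The part of hepatocyte RNA in these values was not tested.

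**Figure D5:**
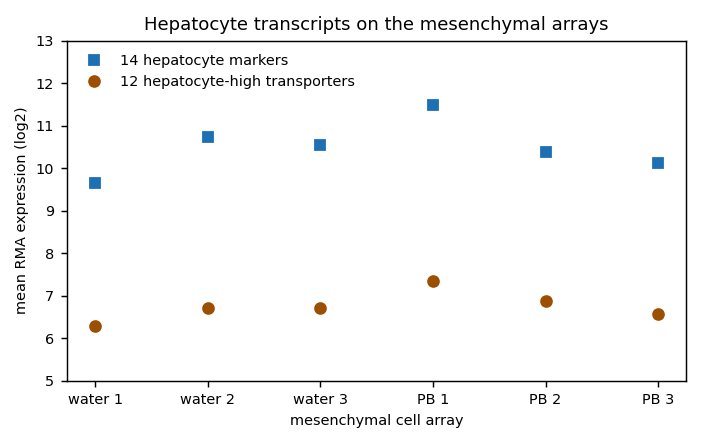
Mean RMA expression (log2, y axis) of the 14 measured hepatocyte markers (squares) and of the 12 transporter genes at least 8-fold lower in mesenchymal cells of water mice (circles) on each of the 6 mesenchymal arrays (x axis). Both means are lowest in water sample 1, at 9.65 and 6.28, and highest in phenobarbital sample 1, at 11.50 and 7.33.

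Abcb11, Slco1b2 and Slco1a1 varied widely within the mesenchymal groups. Abcb11 was at 6.38, 7.004 and 7.05 in water mice and at 8.06, 7.18 and 6.55 in phenobarbital mice, a difference of 0.45 (SE 0.39) that was 0.05 without phenobarbital sample 1. Slco1b2 differed by 0.44 (SE 0.54), and by −0.12 without that sample. Slco1a1 was at 6.47, 6.92 and 7.17 against 7.45, 6.50 and 6.43 (−0.06, SE 0.31).

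Other genes above the 40th percentile on all 6 mesenchymal arrays were as follows. Abcf1, which acts in the start of translation, had the smallest p, at 9.55, 9.58 and 9.66 in water mice and 9.85, 9.88 and 10.04 in phenobarbital mice (0.32, SE 0.08, adjusted p = 0.998, limma). Abcg1 was at 11.40, 11.62 and 11.47 against 11.60, 11.95 and 11.85, overlapping in 1 sample (0.30, SE 0.11, adjusted p = 0.998, limma). Abca1 differed by 0.06 (95% interval −0.14 to 0.26), Slco2a1 by −0.04 (−0.45 to 0.37) and Abcc3 by −0.11 (−0.49 to 0.27). Abcc1 was at 9.77, 8.997 and 8.93 against 8.88, 9.20 and 8.86 (−0.25, interval −0.81 to 0.31), with water sample 1 as the high array. Abcc9, above that percentile on 5 of the 6 arrays, was at 6.52, 7.06 and 7.23 against 7.12, 7.82 and 7.41 (0.51, interval −0.07 to 1.09).

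Whether the effect of phenobarbital differed between the populations was tested as an interaction over all 12 arrays. None of the 37 tested transporter genes passed, nor did any of 9031 genes (0%, limma), and 2 of 37 (5.41%) had an unadjusted p under 0.05, against 492 of 9031 (5.45%). These were Abca1, whose effect was 0.37 more positive in mesenchymal cells (SE 0.14, adjusted p = 0.871, limma), and Abcb1a, whose effect was 0.84 units less (−0.84, SE 0.36, adjusted p = 0.897, limma).

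Other liver transport genes, which the symbol rule does not take, were compared in the same fits. The list includes Tap1, Tap2 and Cftr, which belong to the ABC family under other symbols. Of 24 listed 18 were measured, and of 15 tested 10 were lower and 4 higher in mesenchymal cells of water mice (40.7% and 42% of all genes tested). The lower ones included the bile acid uptake transporter Slc10a1 (−5.40, SE 0.42), the organic cation and proton antiporter Slc47a1 (−5.69, SE 0.42) and the bile acid conjugating enzyme Baat (−6.02, SE 0.32). The mesenchymal means of Slc47a1 and Baat in water mice were 5.50 and 5.36, below the 40th percentile (6.64 to 6.68). Neither gene reached the filter within mesenchymal cells, so their differences are not exact. The higher ones were the nucleoside carrier Slc29a1 (1.76, SE 0.18), the peptide transporters Tap1 (1.33, SE 0.12) and Tap2 (0.95, SE 0.13) and the carnitine carrier Slc22a5 (0.56, SE 0.14). In phenobarbital mice 10 were lower and 3 higher. Under phenobarbital none of 15 tested passed in hepatocytes and none of 10 in mesenchymal cells.

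Of 16 listed regulators of transporter genes and their marker target, 14 were measured and tested. In mesenchymal cells of water mice 8 were lower and 3 higher (40.7% and 42% of all genes tested). Among the lower were the receptors CAR (Nr1i3, −4.04, SE 0.37), PXR (Nr1i2, −3.78, SE 0.15) and FXR (Nr1h4, −3.97, SE 0.20) and the hepatocyte factor Hnf4a (−4.36, SE 0.19). The mesenchymal means of CAR, PXR and FXR in water mice were 4.95, 5.44 and 6.43, below the 40th percentile (6.64 to 6.68). Their differences are thus not exact, and CAR and PXR did not reach the filter within mesenchymal cells. The 3 higher ones were the oxysterol receptor LXR alpha (Nr1h3, 1.46, SE 0.15), a known activator of Abca1 and Abcg1, the antioxidant factor Nfe2l2 (1.82, SE 0.13) and the aryl hydrocarbon receptor Ahr (0.82, SE 0.35). Under phenobarbital only Cyp2b10 passed in hepatocytes (5.52, SE 0.30, adjusted p = 0.00123, limma), and none of 11 passed in mesenchymal cells, where Cyp2b10 was at 7.18, 7.40 and 7.19 in water mice and at 9.39, 7.82 and 7.57 in phenobarbital mice, with sample 1 the high one.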

How the data were processed

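RNA of 12 samples was measured on Affymetrix 3′ expression arrays. The deposited values are log2 expression per probe set, made by the authors with RMA per the submitters' processing notes, which name no version. Each of the 12 columns matched 1 sample. Depth has no counterpart on arrays, so the 3 arrays per group limit the precision. Of 22626 probe sets, 20380 had 1 gene symbol, 691 several and 1555 none, and only the first were used. Of these, 20351 matched a RefSeq symbol.

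Differences were tested with limma 3.58.1 (lmFit, eBayes with trend) in R 4.3.3, with Benjamini-Hochberg adjustment over all genes tested and a threshold of 0.05. The 2 phenobarbital comparisons used the 6 arrays of their population. The population comparisons and the interaction used all 12. A gene was tested where it exceeded the array's 40th percentile on at least 3 arrays of the fit. The code was tested on simulated data.

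The genes and lists were chosen with earlier results of these data known. Every transporter gene could be named. The bile, uptake, drug efflux and cholesterol transporters were always given with single arrays, and with them up to 8 genes of each sign that passed with groups apart, or, where none passed, 3 of each sign with the smallest p.

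Replicate numbers are shared by the groups. In water mice the deviations of same-numbered hepatocyte and mesenchymal samples correlated at 0.197, 0.175 and 0.149, each highest with its own number. In phenobarbital mice they correlated at 0.0631, −0.0316 and 0.00954, and none was highest with its own number. Correlations this weak, with sample 1 standing apart in both water groups, do not settle whether samples were paired. The main fits used no replicate block. Alternatives were centred arrays, no filter, another rule for several probe sets, all arrays in 1 fit, the replicate block and leaving out each array.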

Additional observations from a re-analysis of the deposited data

Results flagged for a closer look

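The effect of phenobarbital on Abca1 was 0.3725 log2 units more positive in mesenchymal cells than in hepatocytes (SE 0.14, unadjusted p = 0.0195, adjusted p = 0.871, limma). The difference of effects was listed because of its unadjusted p, and it did not pass the adjusted threshold. In hepatocytes all 3 treated samples were below all 3 water samples, and in mesenchymal cells the ranges overlapped. It ran from 0.27 to 0.44 when single arrays were left out.

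The effect of phenobarbital on Abcb1a was lower in mesenchymal cells, with a difference of effects of −0.8394 (SE 0.36, unadjusted p = 0.0417, adjusted p = 0.897, limma), listed for the same reason and likewise not past the adjusted threshold. It ran from −1.05 to −0.49 when single arrays were left out. All 6 mesenchymal values of this probe set were below the 40th percentile of their array.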

How the results depend on the processing

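All transporter genes called in both treatments kept their sign, and with the replicate block 33 (water mice) and 32 (phenobarbital mice) transporter genes passed between populations, and 0 under phenobarbital in hepatocytes, in mesenchymal cells and for the difference of effects. The block gave 7445, 7498, 4, 0 and 0 calls over all genes, and moved no count by over 1.5 times. Over all genes, the phenobarbital comparison in hepatocytes gave 1 call with all 12 arrays in 1 fit, 9 with every probe set as its own row, and 1 to 5 with single arrays left out. The difference of effects gave 0 to 1 with single arrays left out. With every probe set as its own row, the population comparisons gave 11681 calls in water mice and 11710 in phenobarbital mice over all probe sets, of which 57 and 54 were of transporter genes, since more rows were tested. Among the transporter genes always named or picked by p, signs of phenobarbital differences near 0 turned when single arrays were left out. In hepatocytes these were Abcb11 (−0.20 to 0.0505), Abcc2 (−0.12 to 0.30), Abcg1 (−0.27 to 0.24), Abcg8 (−0.16 to 0.26) and Slco1b2 (−0.0709 to 0.26). In mesenchymal cells they were Abcc1 (−0.40 to 0.0155), Abcc3 (−0.24 to 0.0406), Abcg2 (−0.28 to 0.19), Slco1a1 (−0.25 to 0.12), Slco1b2 (−0.12 to 0.83) and Slco2a1 (−0.18 to 0.11). Of the other tested transporter genes, Abcg4 in hepatocytes turned without water sample 1 (from 0.0089 to −0.0099), and Abca3 (−0.0688), Abcc5 (0.0387), Abce1 (0.0503) and Slco3a1 (0.0678) in mesenchymal cells turned without water sample 1. For these genes only the arrays that stood apart were left out. Abcb8 in mesenchymal cells was at 0.0671 with the mean of its probe sets. The causes were not tested. The alternative without both water samples numbered 1 and the counts without libraries that stood apart were chosen after seeing the data. Genes below the 40th percentile, 9 of 47 on all 12 arrays, limit what can be said of them.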
